A study of Mus musculus with 13 samples.

Results

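Transcripts of the T cell receptor signalling machinery were examined in T cells sorted from subcutaneous tumors of the mouse melanoma line B16-F10. The set was 48 genes, chosen by symbol from the 12963 genes listed in the deposited table, and it covered 10 roles from the CD3 chains to surface modulators. All 48 genes were listed and all 48 passed the filter on low values, as did 12667 genes in all. The mice were adults of the Foxp3-EGFP-DTR strain, whose endogenous Foxp3 gene also expresses the human receptor for diphtheria toxin and enhanced green fluorescent protein. All groups carried this allele, including the controls given saline (PBS), so that diphtheria toxin (DTx) could kill the regulatory T (Treg) cells in the treated animals only. The 5 groups were CD4 conventional T (Tconv) cells and CD8 T cells from PBS-treated mice (CD4 PBS and CD8 PBS, n = 2 each, replicates 2 and 3), the same cells from DTx-treated mice (CD4 DTx and CD8 DTx, n = 3 each), and Treg cells of PBS-treated animals (Treg PBS, n = 3). Tconv and Treg cells were told apart in the sort by the green reporter, so each library is a bulk mixture of all the CD4 or CD8 cells within its gate. In bulk samples fewer cells of a type and less RNA per cell cannot be told apart.

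As background, the T cell receptor has no enzyme activity of its own. It passes its signal through the CD3 chains, whose tyrosines are phosphorylated by the kinases Lck and Fyn and then bind the kinase Zap70. Zap70 phosphorylates the adaptors Lat and Lcp2 (SLP-76), which gather phospholipase C gamma (Plcg1), the exchange factors Vav1 and Sos1 and other enzymes. The products of the lipase release calcium, which activates calcineurin and the NFAT factors, and diacylglycerol, which activates Rasgrp1 and protein kinase C theta (Prkcq) and through the latter the BCL10 and MALT1 complex and NF-kappaB. Phosphatases, ubiquitin ligases of the CBL family, STS proteins (Ubash3a and Ubash3b) and diacylglycerol kinases (Dgka and Dgkz) restrain these steps. Treg cells are known to depend on receptor signals for their suppressive function.

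The lineage genes matched the labels. Foxp3 was between 1178 and 1896 normalised counts in the Treg PBS libraries, while the other 10 held between 0 and 12.1. Cd4 was between 10595 and 32503 in the CD4 and Treg libraries and at most 413 in the CD8 libraries. Cd8a was between 23475 and 48329 in the CD8 libraries, between 102.9 and 1302 in CD4 DTx, between 26.4 and 31.4 in CD4 PBS and at most 180.1 in Treg PBS. Recovered reads ranged from 15947556 to 34140486 per library. Markers of other cells were present at varying levels. The summed level of 7 myeloid markers was between 88.8 and 3942 over the libraries, that of 3 B cell markers between 92.6 and 1296, that of 2 NK markers between 5.89 and 5111 (highest in CD8 DTx), that of 4 melanocyte markers between 60.7 and 1197 (highest in Treg PBS), that of 3 erythroid markers between 0 and 6570 (highest in CD8 PBS), that of 3 neutrophil markers between 0 and 360.2, and that of 2 stromal and endothelial markers between 949.7 and 7292 (highest in CD4 PBS). Nearly all of the last sum was Pecam1, which T cells are also known to express, while Acta2 was at most 15.3. The highest B cell sum, in a CD8 DTx library, was Cd79b alone. The libraries also differed in how long and short transcripts were represented. Long genes were those whose longest protein-coding transcript had at least 4600 bases, and short genes those with up to 2000. The median log2 level of long minus that of short genes was taken relative to the mean library. It was lowest in CD8 DTx replicate 1 (-0.74), Treg PBS replicate 1 (-0.65) and CD4 DTx replicate 1 (-0.40). The highest was 0.53 in CD4 PBS replicate 3. All CD4 PBS and CD8 PBS libraries were above 0 by this measure. It is called the length shift here, and the calls that change with it as a covariate are named.

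The levels of the 48 genes spanned from 274.3 normalised counts (Pag1 in Treg PBS replicate 1) to 91799 (Ptprc, the CD45 phosphatase, in a CD8 DTx library), far above the 1.98 to 4.10 that 3 reads are worth. Per kilobase of exon, the highest means over all libraries were those of Cd3g (26842), Lck (23871), Cd2 (17722), Cd3e (16170) and Ptprc (13729). The lowest were those of Rel (82.2), a NF-kappaB subunit, and Sos1 (97.2). The ratio of the highest to the lowest group mean was under 1.5 for 9 genes and over 2 for 25. It was over 4 for 8 genes, namely Themis (6.91), Pik3cd (6.50), Nfkb1 (5.22), Txk (4.75), Ubash3b (4.73), Dgka (4.72), Nfkbia (4.52) and Sh2d2a (4.06). In GRCm38 these genes lie at chr10:28668360-28883815 (Themis), chr4:149649168-149701590 (Pik3cd), chr3:135584655-135691546 (Nfkb1), chr5:72695978-72752777 (Txk), chr9:41011098-41158062 (Ubash3b), chr10:128720134-128744075 (Dgka), chr12:55489410-55492647 (Nfkbia) and chr3:87846755-87855722 (Sh2d2a). The least variable were Bcl10 (1.09), Rela (1.20), Ptprc (1.21) and Lck (1.29). Over all comparisons limma called 21 of the 48 genes at least once and the other 27 in none. The share of all genes called at least once was not counted. Of the single tests of all genes in 6 comparisons, 9.10% were called.

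**Figure D1:**
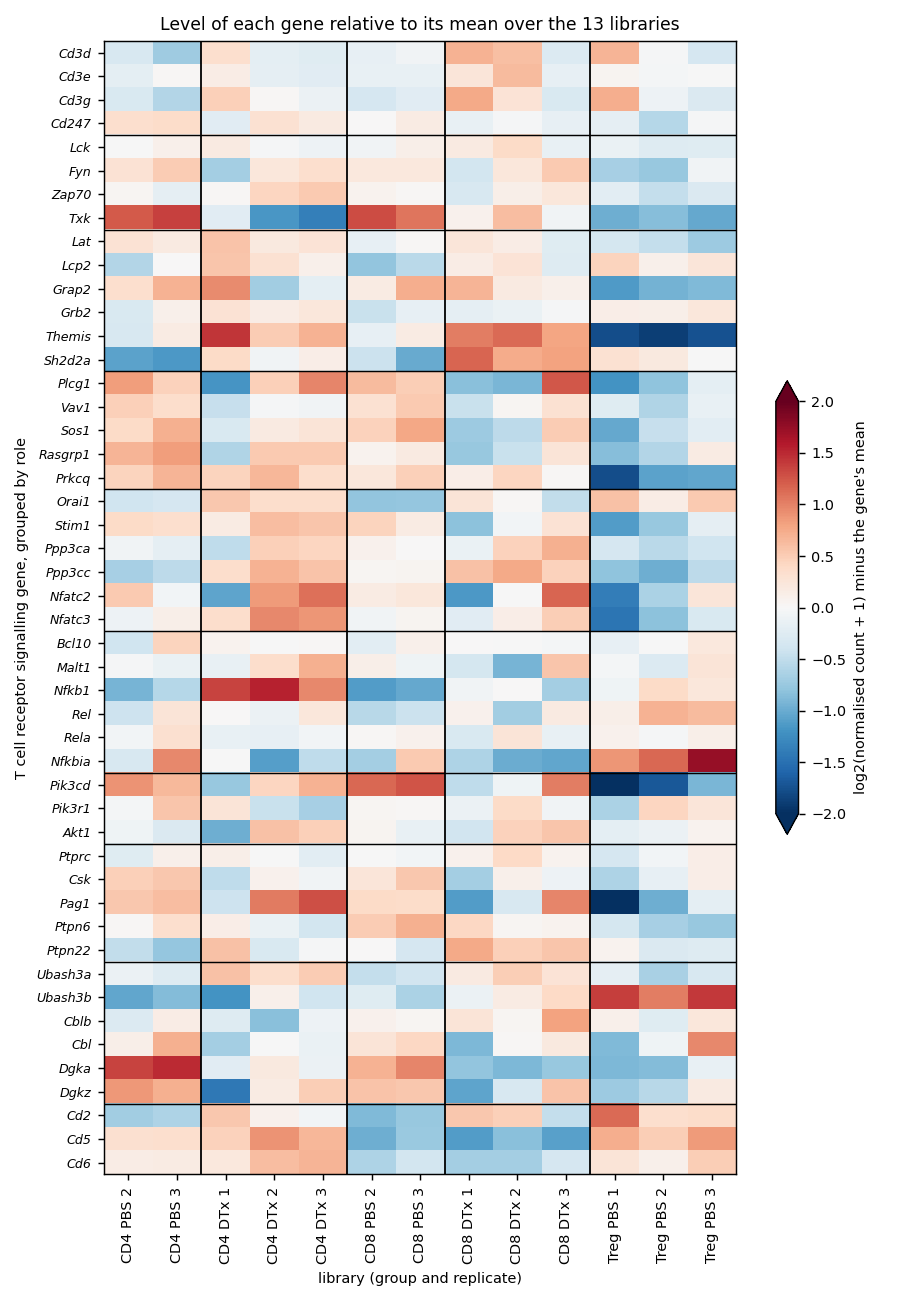
Heat map of the 48 genes (rows, grouped by role between the horizontal lines) in the 13 libraries (columns, groups between the vertical lines). Color is log2(normalised count + 1) minus the gene's mean over all libraries, with the scale ending at -2 and 2. Dgka and Txk stand highest in the CD4 PBS and CD8 PBS libraries, Ubash3b in Treg PBS and Nfkb1 in CD4 DTx, while Themis is lowest in Treg PBS.

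By limma none of the 4 CD3 genes of the receptor complex was called in any of 6 comparisons between groups, with 1 of 24 tests at an unadjusted p under 0.05. Over all genes 9.10% of the tests in these comparisons were called and 21.1% had an unadjusted p under 0.05. The ratio of the highest to the lowest group mean was 1.35 for Cd3e, 1.51 for Cd247, 1.68 for Cd3g and 1.88 for Cd3d. By edgeR none was called either, and DESeq2 called 1, the lower Cd247 in Treg PBS than in CD4 PBS. Cd3g, the gamma chain and the highest of the 4, was at 21253 and 17566 normalised counts in CD4 PBS, 36409, 26773 and 24193 in CD4 DTx, 20854 and 22399 in CD8 PBS, 44649, 31855 and 21392 in CD8 DTx, and 43596, 24522 and 21512 in Treg PBS. Replicate 1 was the highest in each of the 3 groups that had one, and the CD8 DTx and CD8 PBS libraries overlapped. Between CD4 DTx and CD4 PBS the log2 fold change of Cd3g was 0.57 ± 0.35 (SE, adjusted p = 0.329), and 0.19 with the length shift as a covariate. Per kilobase, the level of Cd3g was between 7.93 and 9.85 times that of Cd247, the zeta chain, in CD4 PBS, between 12.5 and 24.9 times in CD4 DTx and between 12.7 and 28.8 times in Treg PBS. Cd3g has 1023 exonic bases and Cd247 has 4558. Within Treg PBS the ratio fell from 28.8 to 21.3 and 12.7 as the length shift rose from replicate 1 to 3. In CD4 DTx replicate 1 gave the 24.9, with replicates 2 and 3 at 12.6 and 12.5. The part of the length shift in this ratio was not tested. The kinases Lck, Fyn and Zap70 were not called by limma or edgeR (2 of 18 tests at an unadjusted p under 0.05 by each), while DESeq2 called Fyn in Treg PBS against CD4 PBS and Zap70 in CD4 DTx against Treg PBS. Lck ranged from 45808 to 71638 over all libraries.

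CD4 Tconv cells were compared between DTx-treated and PBS-treated mice. In CD4 DTx against CD4 PBS 8 of the 48 genes were called by limma at an adjusted p under 0.05. Of these, 6 rose (Nfkb1, Sh2d2a, Ppp3cc, Themis, Orai1 and Ubash3a) and 2 fell (Txk and Dgka), and 40 did not pass. Of all genes tested, 8.64% rose and 4.08% fell in this comparison. The median log2 fold change was 0.06 over the 48 genes and -0.04 over all genes. A change of over 4-fold besides was reached by 2 of the genes, Txk and Nfkb1, beside 6.85% of all genes.

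The genes that fell act in opposite directions on the signal, Txk as a Tec family kinase that phosphorylates Plcg1 and Dgka as a kinase that removes diacylglycerol. Txk was at 5321 and 5857 normalised counts in CD4 PBS against 1949, 1016 and 884 in CD4 DTx. It fell by 2.21 ± 0.31 on the log2 scale, a 4.63-fold lower level (adjusted p = 0.000643). Dgka was at 47016 and 51838 in CD4 PBS against 15773, 21001 and 16936 in CD4 DTx. It fell by 1.47 ± 0.25, a 2.78-fold lower level (adjusted p = 0.00188). For both genes every CD4 DTx library lay below both CD4 PBS libraries. Between these groups 24 of the 48 genes did not overlap, and neither did 46.3% of all genes, so such separation was common. Dgka shares exonic sequence with Pmel, a melanocyte gene on the opposite strand, and Pmel was at most 280.7 in any CD4 PBS library. Themis, Orai1, Ppp3cc, Nfatc3 and Ptpn6 also overlap exons of genes on the opposite strand. The part of such overlaps in these levels was not tested. The related kinase Dgkz was not called (-1.05 ± 0.54, adjusted p = 0.24).

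The promoter windows of these genes are shown because both fell together and were also low in Treg cells. They run from 250 bases before to 50 after the annotated start, 5′ to 3′ on the minus strand of GRCm38.p6, from RefSeq. Capitals mark matches to GGGNNNNNCC on either strand, a shape shared by NF-kappaB sites, overlapping matches being merged. That of Txk is chr5:72752728-72753027, and that of Dgka is chr10:128744027-128744326.
Txk: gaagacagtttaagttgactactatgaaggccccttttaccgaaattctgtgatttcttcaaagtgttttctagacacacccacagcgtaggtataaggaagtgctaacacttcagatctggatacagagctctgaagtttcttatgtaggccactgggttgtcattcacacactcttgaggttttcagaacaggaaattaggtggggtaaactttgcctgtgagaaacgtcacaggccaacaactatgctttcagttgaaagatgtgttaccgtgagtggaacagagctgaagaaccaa
Dgka: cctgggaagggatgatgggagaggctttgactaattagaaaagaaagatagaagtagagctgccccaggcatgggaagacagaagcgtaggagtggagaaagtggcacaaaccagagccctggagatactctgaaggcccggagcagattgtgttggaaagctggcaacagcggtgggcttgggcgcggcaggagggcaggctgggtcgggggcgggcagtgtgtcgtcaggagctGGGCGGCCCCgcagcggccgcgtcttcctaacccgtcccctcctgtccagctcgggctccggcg
RefSeq gave 4 windows for Dgka and 2 for Txk, and those shown lie at the outer end of the gene as positioned above. A match was held by 2 of the 4 Dgka windows, the one shown among them, and by 0 of the 2 Txk windows. Such a match is common, since 50.79% of all 32851 mouse promoter windows and 56.67% of the 60 windows of 40 members hold at least 1. TGTTTAC, a forkhead shape, was in 3.65% of all windows and in those of Akt1, Grap2, Nfatc2 and Nfatc3 (6.67% of the member windows). TGTGGTT, a RUNX shape, was in 5.27% of all windows and in those of Lck, Ptpn22 and another start of Txk (5.0% of the member windows). CCGGAAG, an ETS shape, was in 8.86% and in that of Bcl10 alone (1.67%), and TGANTCA, the AP-1 shape, was in 7.81% and in no member window. Both strands were searched, and a match describes letters only.

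Of the genes that rose, Nfkb1 changed most. It encodes the p105 precursor of the p50 subunit of NF-kappaB. It was at 1147 and 1462 normalised counts in CD4 PBS against 5589, 6357 and 4243 in CD4 DTx, a rise of 2.04 ± 0.26 (4.11-fold, adjusted p = 0.000348). All CD4 DTx libraries were also above every library of the other 4 groups. The other NF-kappaB genes and the BCL10 and MALT1 genes were not called, with log2 fold changes between -0.85 (Nfkbia, the IkappaB alpha inhibitor) and 0.38 (Malt1). The ratio of Nfkb1 to Rela, the p65 subunit, per kilobase was between 0.142 and 0.144 in CD4 PBS and between 0.531 and 0.857 in CD4 DTx.

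Sh2d2a encodes the adaptor TSAd, which binds Lck. It was at 5778 and 5466 in CD4 PBS against 15746, 11556 and 13190 in CD4 DTx (1.25 ± 0.23, adjusted p = 0.00312). Ppp3cc, a catalytic subunit of calcineurin, was at 3175 and 3519 in CD4 PBS against 6461, 8191 and 7471 in CD4 DTx (1.13 ± 0.19, adjusted p = 0.00171). Both genes were above all CD4 PBS libraries in every CD4 DTx library. The other catalytic subunit measured, Ppp3ca, was not called (0.26 ± 0.31), and per kilobase Ppp3cc was between 4.89 and 5.89 times as high as Ppp3ca in CD4 PBS and between 8.17 and 13.5 times in CD4 DTx. Within CD4 DTx the 13.5 was replicate 1, which had the lowest length shift of the group, with replicates 2 and 3 at 8.68 and 8.17.

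Themis, an adaptor that tunes receptor signals, was at 4630 and 6423 in CD4 PBS against 15501, 8165 and 9339 in CD4 DTx (0.95 ± 0.26, adjusted p = 0.0318). Orai1, the pore of the calcium channel opened after store release, was at 1431 and 1501 in CD4 PBS against 2739, 2428 and 2424 in CD4 DTx (0.79 ± 0.23, adjusted p = 0.0426). Ubash3a, the STS-2 protein that dampens receptor signals, was at 5346 and 4812 in CD4 PBS against 8698, 7331 and 8202 in CD4 DTx (0.67 ± 0.18, adjusted p = 0.0328). In none of the 3 did the groups overlap, as in the 46.3% of all genes given above. These 3 calls rested on single libraries. Orai1 was not called without any 1 of the 5 libraries (adjusted p between 0.074 and 0.203), Ubash3a without CD4 PBS replicate 2 or 3 or CD4 DTx replicate 1 or 3 (0.0748 to 0.236), and Themis without CD4 PBS replicate 2 or 3 or CD4 DTx replicate 1 (0.0661 to 0.262). The count of calls was then 5 without CD4 PBS replicate 2, CD4 PBS replicate 3 or CD4 DTx replicate 1, against 8.

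Marker genes of naive and of proliferating T cells also differed between these groups. All 3 naive T cell genes fell (Ccr7, Lef1 and Tcf7), their sum being between 96584 and 121248 in CD4 PBS and between 12533 and 15590 in CD4 DTx. All 5 proliferation genes rose (Mki67, Top2a, Ccnb1, Cdk1 and Aurkb), from sums between 533.7 and 1093 to sums between 5141 and 7573. None of these genes was at 0 in every library of either group. Of the markers of other cells, the melanocyte sum was between 434.6 and 447.8 in CD4 PBS and between 89.0 and 170.2 in CD4 DTx, and the stromal and endothelial sum was between 7092 and 7292 against 1772 and 2734. The part of all these markers in the differences of the signalling genes was not tested. With the length shift as a covariate all 8 calls held and Nfatc3 (1.06, adjusted p = 0.00159) and Pag1 joined them, giving 10.

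**Figure D2:**
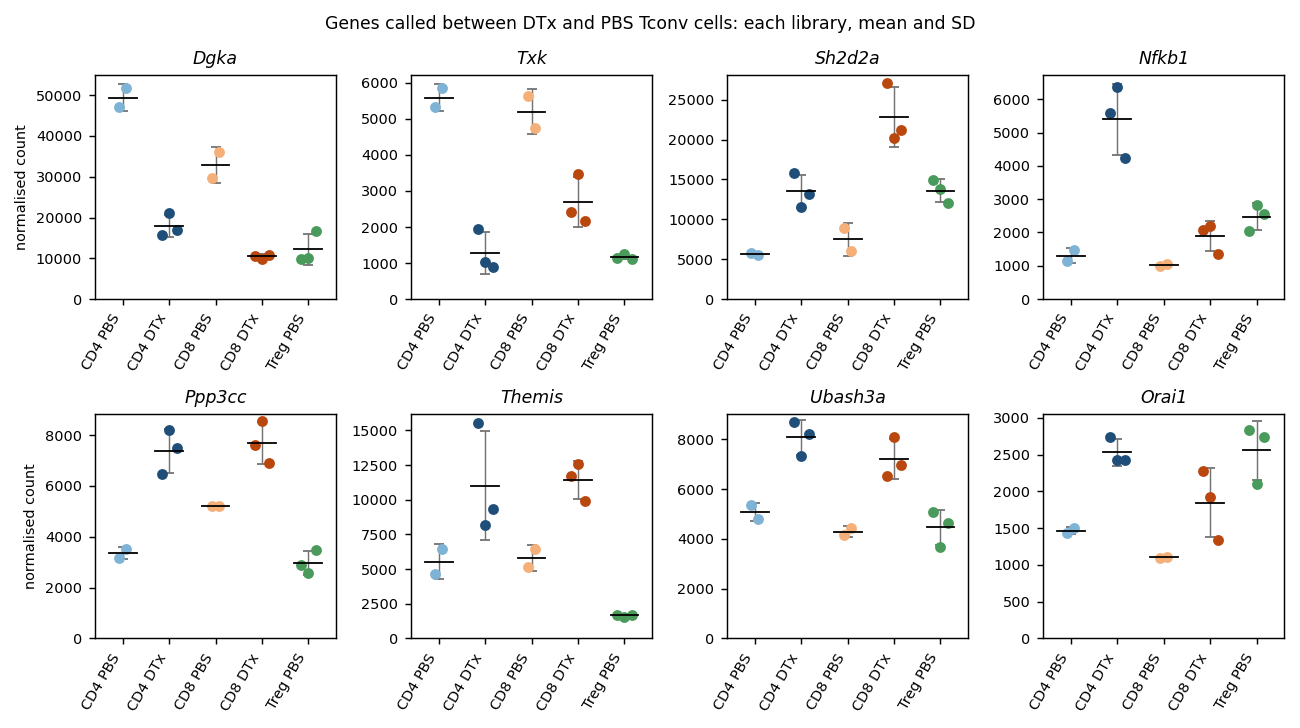
Normalised count on a linear axis from 0 in each library (points) for the 8 genes called between DTx and PBS cells, with the group mean (line) and SD (bar). Dgka and Txk are lower and Nfkb1, Sh2d2a, Ppp3cc, Themis, Ubash3a and Orai1 higher in every CD4 DTx library than in both CD4 PBS libraries.

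In CD8 T cells 4 of the 48 genes were called after DTx. Of these, 3 rose (Sh2d2a, Themis and Ubash3a) and 1 fell (Dgka), and 44 did not pass. Of all genes tested, 7.4% rose and 3.47% fell. The median log2 fold change was 0.00 over the 48 genes and -0.03 over all genes. No member was also past 4-fold, against 5.46% of all genes.

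Sh2d2a was at 8959 and 5986 normalised counts in CD8 PBS against 27066, 20183 and 21155 in CD8 DTx, a rise of 1.63 ± 0.23 (3.09-fold, adjusted p = 0.00135). Dgka was at 29701 and 36038 in CD8 PBS against 10668, 9850 and 10878 in CD8 DTx, and fell by 1.65 ± 0.25 (3.13-fold lower, adjusted p = 0.00182). These calls held without any 1 library. Themis was at 5138 and 6457 in CD8 PBS against 11712, 12594 and 9946 in CD8 DTx (0.98 ± 0.26, adjusted p = 0.0326). Ubash3a was at 4140 and 4436 in CD8 PBS against 6535, 8107 and 6978 in CD8 DTx (0.74 ± 0.18, adjusted p = 0.0236). None of the 4 genes overlapped between the groups, and neither did 19 of the 48 genes or 43.6% of all genes. Themis was not called without CD8 PBS replicate 2 or 3 or CD8 DTx replicate 1 or 2 (0.0836 to 0.218), nor Ubash3a without CD8 PBS replicate 2 or 3 or CD8 DTx replicate 2 (0.0764 to 0.159).

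Several other genes came close to the threshold in CD8 cells without passing it in limma. Nfkb1 was at 999.9 and 1068 in CD8 PBS against 2083, 2201 and 1366 in CD8 DTx (0.83 ± 0.26, adjusted p = 0.0576). Txk was at 5646 and 4752 in CD8 PBS against 2416, 3473 and 2170 in CD8 DTx (-0.98 ± 0.31, adjusted p = 0.0609). Orai1 was at 1091 and 1112 in CD8 PBS against 2274, 1922 and 1339 in CD8 DTx (0.71 ± 0.23, adjusted p = 0.0692), and Ppp3cc at 5197 and 5224 and at 7599, 8532 and 6916 (0.56 ± 0.19, adjusted p = 0.0772). DESeq2 called 11 genes, including all 4 of these (adjusted p between 0.0137 and 0.0297). With a replicate block 9 were called, among them Nfkb1, Txk and Ppp3cc (0.0314 to 0.0487). CD8 DTx replicate 3 was the lowest library of its group in each of these genes. Without it 11 of the 48 genes were called, Nfkb1, Orai1 and Ppp3cc among them. With the length shift as a covariate 7 were called, Txk (-1.16, adjusted p = 0.0246), Ppp3cc and Cd2 besides the 4. The share of all genes called in each of these other fits was not counted. The 3 naive T cell genes fell and the 5 proliferation genes rose in CD8 cells too, the sums going from between 61303 and 79579 to between 6945 and 11620 and from between 865.1 and 3358 to between 9803 and 21585. The sum of the NK markers was between 242.6 and 3069 in CD8 PBS and between 309.5 and 5111 in CD8 DTx, where Ncr1 and Klrb1c were above 0 in every library. The myeloid sum was between 662.5 and 2135 in CD8 PBS and between 1842 and 2759 in CD8 DTx. Within it Itgam (13.3 to 205.3 against 512.7 to 1606) and Cd68 (124.0 to 273.4 against 607.0 to 1055) were higher in every CD8 DTx library and Lyz2 (497.2 to 1321 against 51.0 to 197.9) was lower. Lower in every CD8 DTx library were also the melanocyte sum (170.6 to 629.3 against 60.7 to 124.7), the erythroid sum (1596 to 6570 against 16.6 to 790.7) and the stromal and endothelial sum (3768 to 3865 against 949.7 to 1403). The part of these cells and states in the differences was not tested.

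A test of the difference between the CD4 and CD8 responses called none of the 48 genes, and 0.0474% of all genes. By limma 3 of the 48 had an unadjusted p under 0.05, against 2 by edgeR and 4 by DESeq2, both of which called 0. The 3 were Nfkb1 (CD4 response minus CD8 response 1.20 ± 0.36, unadjusted p = 0.00602, adjusted p = 0.577), Txk (-1.23 ± 0.43, unadjusted p = 0.0144) and Ppp3cc (0.58 ± 0.26, unadjusted p = 0.0466). A difference between the responses was therefore not shown for any of the genes called in CD4 cells alone. The 4 genes called in CD8 cells were all among the 8 called in CD4 cells, in the same direction. These comparisons share no library. They are not independent, since same-numbered CD4 DTx and CD8 DTx libraries deviated together and the spread was fitted to all libraries. How often genes called in CD8 cells were also called in CD4 cells over all genes was not counted.

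**Figure D3:**
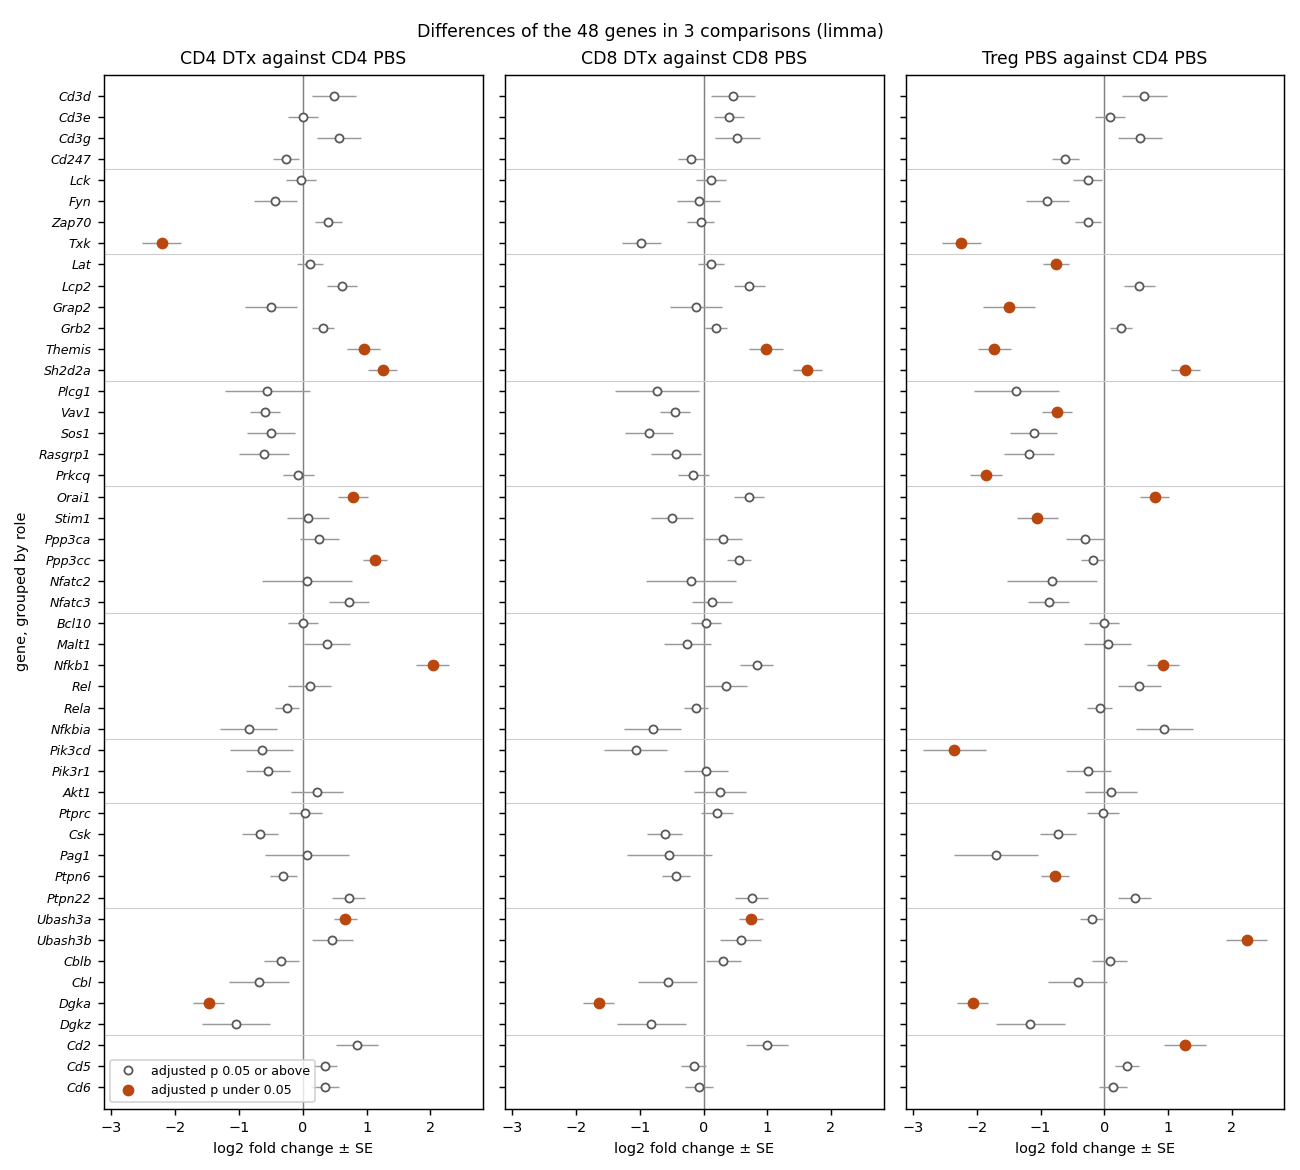
Log2 fold change (points) with SE (bars) of each of the 48 genes, grouped by role, in CD4 DTx against CD4 PBS, CD8 DTx against CD8 PBS and Treg PBS against CD4 PBS. Filled points passed an adjusted p under 0.05 in limma, 8, 4 and 15 genes in turn. The first and last panels share the CD4 PBS libraries.

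Treg cells and CD4 Tconv cells of PBS-treated mice were compared next. In Treg PBS against CD4 PBS 15 of the 48 genes were called, 5 higher in Treg cells (Ubash3b, Sh2d2a, Cd2, Nfkb1 and Orai1) and 10 lower (Pik3cd, Txk, Dgka, Prkcq, Themis, Grap2, Stim1, Ptpn6, Lat and Vav1), while 33 did not pass. Of all genes, 13.5% were higher and 6.91% lower. The median log2 fold change was -0.25 over the 48 genes and 0.01 over all genes. Past 4-fold were 4 of the genes, Pik3cd, Txk, Ubash3b and Dgka, beside 10.2% of all genes.

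The genes lower in Treg cells included a kinase, a kinase C, 3 adaptors and an exchange factor that act after the receptor. Txk was at 1152, 1261 and 1120 normalised counts in Treg PBS against 5321 and 5857 in CD4 PBS (-2.25 ± 0.31, 4.74-fold lower, adjusted p = 0.000356). Prkcq was at 3212, 5260 and 5393 in Treg PBS and at 14997 and 17672 in CD4 PBS (-1.85 ± 0.24, adjusted p = 0.000293). Themis was at 1677, 1556 and 1722 against 4630 and 6423 (-1.72 ± 0.26, adjusted p = 0.000695). In all 3 genes the Treg libraries lay far below both CD4 PBS libraries, and the calls held without any 1 library. Grap2, the GADS adaptor that joins Lat to Lcp2, was at 323.5, 369.4 and 386.1 in Treg PBS and at 896.5 and 1143 in CD4 PBS (-1.49 ± 0.41, adjusted p = 0.0216). Lat was at 8445, 7772 and 6548 in Treg PBS and at 13207 and 12281 in CD4 PBS (-0.75 ± 0.20, adjusted p = 0.0211). Vav1, an exchange factor for Rac, was at 6856, 5329 and 7347 against 11298 and 10313 (-0.74 ± 0.24, adjusted p = 0.0466).

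Pik3cd, the p110 delta catalytic subunit of PI3K, had the largest log2 fold change of the 48 genes between these groups without a covariate. It was at 2588, 3536 and 6069 in Treg PBS and at 21209 and 17848 in CD4 PBS (-2.35 ± 0.50, 5.10-fold lower, adjusted p = 0.00583). Its level in the Treg libraries, in that order, went with their length shift, which was -0.65, -0.21 and 0.33, and the same order held within CD8 DTx (8054, 10743 and 23305, with -0.74, -0.38 and 0.50). With the length shift as a covariate the difference was -1.55 (adjusted p = 0.000785), smaller in size than those of Ubash3b (2.51), Txk (-2.48), Themis (-1.88), Dgka (-1.87) and Prkcq (-1.76). The other PI3K and AKT genes, Pik3r1 and Akt1, were not called (-0.25 and 0.11). Stim1, the calcium sensor that opens Orai1, was at 1133, 1458 and 2167 in Treg PBS and at 3220 and 3109 in CD4 PBS (-1.05 ± 0.33, adjusted p = 0.0395), again in the order of the length shift. With the covariate Stim1 was no longer called (-0.57, adjusted p = 0.0579), nor were Vav1 (-0.50, adjusted p = 0.112), Nfkb1 (0.79, adjusted p = 0.0579) and Orai1 (0.57, adjusted p = 0.0658), leaving 11 of the 15.

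Among the attenuators the members moved in different directions. Ubash3b, the STS-1 phosphatase that acts on Zap70, was at 5426, 4227 and 5514 in Treg PBS and at 1004 and 1132 in CD4 PBS (2.23 ± 0.32, 4.70-fold higher, adjusted p = 0.000495). Its relative Ubash3a was at 5075, 3691 and 4617 in Treg PBS and was not called (-0.20 ± 0.18). Per kilobase, Ubash3b was between 1.23 and 1.38 times the level of Ubash3a in Treg PBS, and between 0.12 and 0.486 times in the 10 other libraries. Dgka was at 9825, 10042 and 16612 in Treg PBS (-2.07 ± 0.25, 4.19-fold lower, adjusted p = 0.000154), below both CD4 PBS libraries. Ptpn6, the SHP-1 phosphatase, was at 9315, 7524 and 7049 in Treg PBS and at 12115 and 14997 in CD4 PBS (-0.77 ± 0.22, adjusted p = 0.0253). Cblb, Cbl and Dgkz were not called.

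The genes higher in Treg cells otherwise belonged to several steps. Sh2d2a was at 14933, 13800 and 12076 (1.27 ± 0.23, adjusted p = 0.00196). Cd2, a costimulatory adhesion receptor, was at 40952, 23644 and 24189 in Treg PBS and at 11576 and 12183 in CD4 PBS (1.27 ± 0.33, adjusted p = 0.0183). Nfkb1 was at 2044, 2835 and 2550 (0.92 ± 0.26, adjusted p = 0.0241) and Orai1 at 2841, 2094 and 2735 (0.79 ± 0.23, adjusted p = 0.03). All 4 genes were above both CD4 PBS libraries in every Treg library. Of the 48 genes 32 did not overlap between these groups, beside 56.7% of all genes. Nfkbia was at 17180, 20533 and 31112 in Treg PBS but at 7400 and 18038 in CD4 PBS, so that the groups overlapped (0.94 ± 0.45, adjusted p = 0.157).

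Without CD4 PBS replicate 2 only 6 of the 48 genes were called and without replicate 3 only 7. The other CD4 PBS library then stood alone and was assumed to vary like the other groups. Txk, Prkcq, Themis, Sh2d2a, Ubash3b and Dgka held without any 1 library. Pik3cd was lost without CD4 PBS replicate 2 (adjusted p = 0.0546). Cd2, Grap2, Lat, Nfkb1, Orai1, Ptpn6, Stim1 and Vav1 were lost without either CD4 PBS replicate (0.0617 to 0.218). They were also lost without Treg replicate 1 (Cd2, Grap2, Orai1, Stim1 and Vav1, 0.0651 to 0.134), replicate 2 (Grap2, Nfkb1, Ptpn6, Stim1 and Vav1, 0.0513 to 0.142) or replicate 3 (Lat, Nfkb1, Orai1 and Ptpn6, 0.0501 to 0.0649). The Treg libraries, like the DTx libraries, had low naive T cell sums (3547 to 13640) and high proliferation sums (10656 to 27071), and their melanocyte sum was between 726.5 and 1197 against 434.6 and 447.8 in CD4 PBS. The stromal and endothelial sum was between 1634 and 2047 in Treg PBS and between 7092 and 7292 in CD4 PBS. The B cell sum (441 to 911 against 145.3 to 220.0) and the NK sum (5.89 to 16.9 against 45.6 to 274.7) did not overlap either. Of the B cell markers only Cd79b was higher in every Treg library (400.5 to 685.7 against 37.0 to 77.9), while Ms4a1 and Cd79a overlapped. Of the melanocyte markers Tyrp1 and Dct were higher in every Treg library, while Pmel and Tyr overlapped. The myeloid, erythroid and neutrophil sums overlapped. The part of these markers in the differences was not tested. With a replicate block 21 of the 48 genes were called, against 15, and the share of all genes called with it was not counted.

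**Figure D4:**
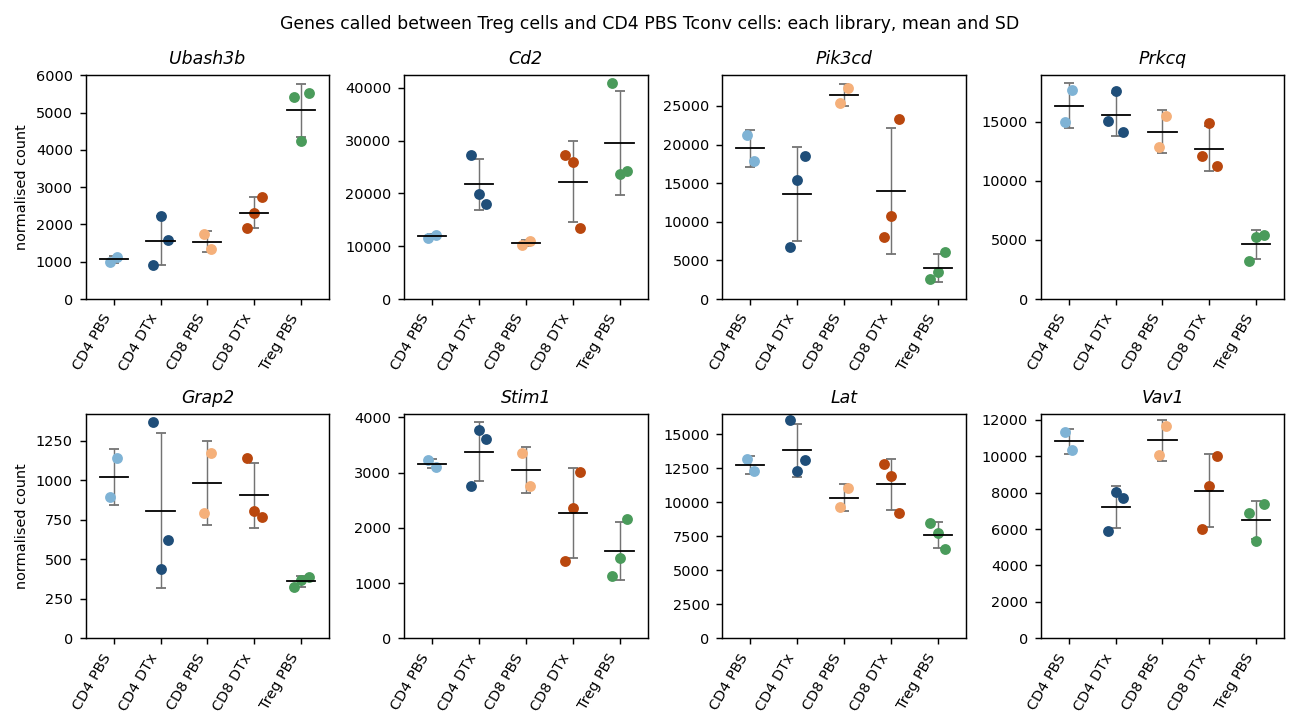
Normalised count on a linear axis from 0 in each library (points) for 8 of the genes called between Treg PBS and CD4 PBS, with the group mean (line) and SD (bar). Ubash3b and Cd2 are higher and Pik3cd, Prkcq, Grap2, Stim1, Lat and Vav1 lower in every Treg PBS library than in both CD4 PBS libraries.

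How CD4 Tconv cells from ablated tumors differed from Treg cells was compared directly, since the comparisons above share the CD4 PBS libraries. In CD4 DTx against Treg PBS 11 of the 48 genes were called, 9 higher in CD4 DTx and 2 lower, beside 3.36% and 4.55% of all genes. The median log2 fold change was 0.22 over the 48 genes and -0.04 over all genes. Themis was the only member also past 4-fold (2.68 ± 0.23, 6.40-fold higher, adjusted p = 0.000101), beside 4.01% of all genes. Its lowest CD4 DTx library, at 8165, was above its highest Treg library, at 1722.

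Higher in CD4 DTx were also Prkcq (1.79 ± 0.22, adjusted p = 0.00057), Pik3cd (1.71 ± 0.44), Nfatc3 (1.60 ± 0.28), Ppp3cc (1.31 ± 0.17), Stim1 (1.13 ± 0.29), Nfkb1 (1.12 ± 0.23), Ubash3a (0.87 ± 0.17) and Lat (0.86 ± 0.18). Genes higher in CD4 DTx thus included 3 of 6 calcium and NFAT genes and 2 of 6 adaptors, beside 3.36% of all genes. No role was tested as a set. Nfatc3, a factor that calcineurin sends to the nucleus, was at 10330, 15695 and 14818 in CD4 DTx and at 2931, 4551 and 6510 in Treg PBS. The genes lower in CD4 DTx were Ubash3b (904, 2217 and 1575, -1.77 ± 0.29, adjusted p = 0.00278) and Nfkbia (9263, 4337 and 6559, -1.79 ± 0.40, adjusted p = 0.0179). Nfatc3 and Nfkbia, with Cd5 and Cd6 below, fell outside the rule for named genes and were chosen after their values were seen. Txk, Sh2d2a and Orai1 lay close together in the 2 groups, with log2 fold changes of 0.04 ± 0.27, -0.02 ± 0.20 and 0.00 ± 0.21, which does not show that they were alike.

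Pik3cd and Stim1 were not called without CD4 DTx replicate 2 or 3 or Treg replicate 1 or 2 (0.0997 to 0.136), Nfkbia without CD4 DTx replicate 2 or 3 or Treg replicate 2 or 3 (0.0512 to 0.0678), Lat without Treg replicate 3 (0.0503) and Nfkb1 without Treg replicate 1 (0.0509). With the length shift as a covariate 14 genes were called, all 11 and Pag1, Ptpn6 and Zap70. The naive T cell sums of these groups overlapped, and 1 of the 3 naive T cell genes was called. The proliferation sums were lower in CD4 DTx (5141 to 7573) than in Treg PBS (10656 to 27071), with 0 of 5 genes called by limma (3 at an unadjusted p under 0.05), 0 by edgeR and 2 by DESeq2. The melanocyte sum was between 89.0 and 170.2 in CD4 DTx and between 726.5 and 1197 in Treg PBS, and the erythroid sum was between 0 and 1175 against 1844 and 3216. Nor did the B cell sum (92.6 to 158.5 against 441 to 911) and the NK sum (175.1 to 534.0 against 5.89 to 16.9) overlap. Within the B cell sum Cd79b (72.4 to 144.2 against 400.5 to 685.7) and Cd79a (1.02 to 5.27 against 40.6 to 154.9) did not overlap, while Ms4a1 did. The part of all these markers in the differences was not tested.

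The promoter of Nfkbia is shown because Nfkb1 and Nfkbia differed in opposite directions between these groups. Both calls were lost without some of the single libraries named above. As background, NF-kappaB is known to drive its own inhibitor, which was not tested here. The window is chr12:55492598-55492897 of GRCm38.p6, on the minus strand, marked as above.
Nfkbia: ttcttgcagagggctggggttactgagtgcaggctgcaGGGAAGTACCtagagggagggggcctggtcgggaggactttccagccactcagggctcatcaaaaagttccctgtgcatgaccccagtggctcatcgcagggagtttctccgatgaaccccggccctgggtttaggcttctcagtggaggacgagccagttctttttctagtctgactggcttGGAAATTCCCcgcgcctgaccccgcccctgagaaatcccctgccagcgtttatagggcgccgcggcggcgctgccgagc
The capitals mark 2 matches, at 212 and 29 bases before the start. Such matches are common, with at least 1 in 50.79% of all windows, and describe letters only. Nfkb1 was not matched to a window here.

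**Figure D5:**
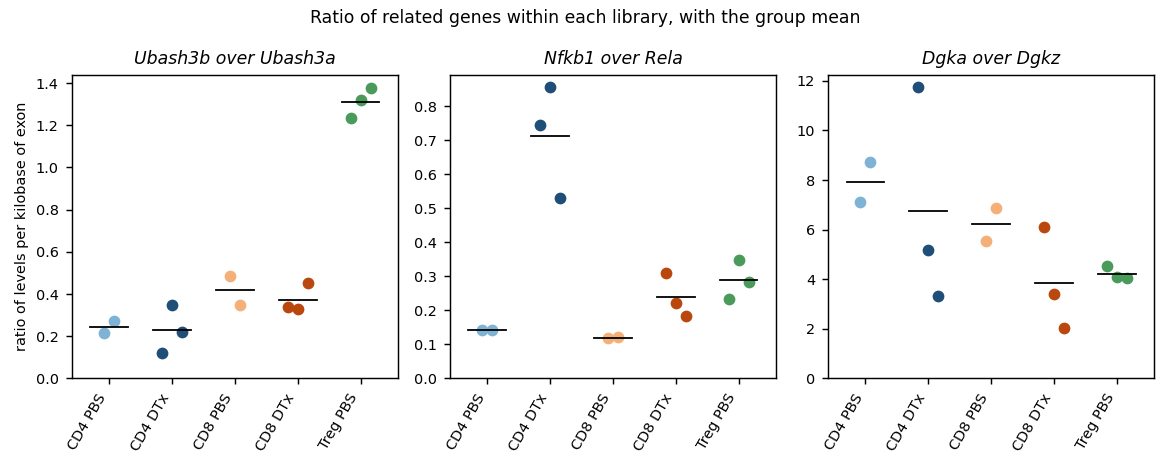
Ratio of the levels per kilobase of exon of 3 pairs of related genes within each library (points), with the group mean (line), on linear axes from 0. Ubash3b over Ubash3a is between 1.23 and 1.38 in the Treg PBS libraries and at most 0.486 elsewhere, and Nfkb1 over Rela is highest in CD4 DTx. The ratio of Dgka over Dgkz in CD4 DTx (3.32 to 11.8) overlaps with that of every other group. It is between 7.13 and 8.72 in CD4 PBS, 5.55 and 6.87 in CD8 PBS, 2.02 and 6.12 in CD8 DTx, and 4.04 and 4.51 in Treg PBS.

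CD4 and CD8 cells were compared within each treatment, where few genes of any kind were called. In CD8 PBS against CD4 PBS 1 of the 48 genes was called, beside 0.837% of all genes that were higher and 0.245% that were lower in CD8 cells. This was Cd5, an inhibitory receptor whose level is known to follow the strength of receptor signals. It was at 4428 and 5225 normalised counts in CD8 PBS against 10941 and 10994 in CD4 PBS (-1.19 ± 0.21, adjusted p = 0.0161). The call was lost without any 1 of the 4 libraries (0.0527 to 0.184), while the direction held.

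After ablation the same gene differed again. In CD8 DTx against CD4 DTx 3 of the 48 genes were called, all lower in CD8 cells, beside 0.892% of all genes that were higher and 0.75% that were lower. Cd5 was at 4009, 4866 and 4131 in CD8 DTx and at 12019, 16335 and 13884 in CD4 DTx (-1.69 ± 0.17, 3.23-fold lower, adjusted p = 0.000583). Cd6, a related receptor encoded near Cd5 on chromosome 19, was at 13964, 13888 and 17719 in CD8 DTx and at 25808, 34229 and 35817 in CD4 DTx (-1.07 ± 0.20, adjusted p = 0.0215). Nfkb1 was also lower (-1.53 ± 0.23, adjusted p = 0.00707). No CD8 DTx library overlapped with CD4 DTx in these genes, which held for 9 of the 48 genes and 13.9% of all genes. The replicate numbers were taken to pair these samples, which no label states. With a replicate block 6 genes were called, namely Sh2d2a (adjusted p = 0.0306), Txk (adjusted p = 0.0373) and Cblb besides the 3. With the length shift as a covariate 4 were called, Txk (1.04, adjusted p = 0.0495) besides the 3. The call of Cd6 was lost without CD4 DTx replicate 2 or 3 or CD8 DTx replicate 1 or 2 (0.0743 to 0.0898).

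Other genes of the pathway were taken from a list of 72, of which 70 were tested. In CD4 DTx against CD4 PBS 5 of the 70 rose (7.14%) and 3 fell (4.29%), near the 8.64% and 4.08% of all genes. Those with the largest rise were Dok2, an adaptor that recruits inhibitors of Ras (1.79 ± 0.27), Itpr1, a calcium release channel (1.58 ± 0.27), and Sla, the SLAP adaptor that lowers receptor levels (1.05 ± 0.17). The genes that fell were Tec (-1.37 ± 0.32), a kinase of the same family as Txk, Rhoh (-0.91 ± 0.18), an adaptor-like GTPase, and Itpr2 (-0.80 ± 0.20), a calcium release channel. Rhoh went from a mean of 10235 normalised counts in CD4 PBS to 5433 in CD4 DTx.

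In CD8 DTx against CD8 PBS 4 of the 70 rose and 4 fell (5.71% each), beside 7.4% and 3.47% of all genes. Those that rose were led by Rnf128, Tab2 (1.54 ± 0.32) and Dok2 (1.45 ± 0.27), and those that fell by Pik3r2 (-1.82 ± 0.40), Ikbkb (-1.09 ± 0.21) and Rhoh (-1.01 ± 0.18). Rnf128 was at 86.3 and 1.33 normalised counts in CD8 PBS and at 168.1, 336.1 and 170.9 in CD8 DTx. The lowest of these values is 1 read, so the place of Rnf128 in this order rests on CD8 PBS replicate 3. In Treg PBS against CD4 PBS 10 were higher (14.3%) and 5 lower (7.14%), near the 13.5% and 6.91% of all genes. Sla (1.86 ± 0.17), Nfkb2 (1.40 ± 0.34) and Orai3 (1.31 ± 0.32) were the highest, and Orai2 (-2.29 ± 0.58), Rasal3 (-1.71 ± 0.50), a GTPase-activating protein of Ras, and Tespa1 (-1.15 ± 0.29) the lowest. In CD4 DTx against Treg PBS 6 were higher (8.57%) and 3 lower (4.29%), beside 3.36% and 4.55% of all genes. Tespa1 (1.54 ± 0.26), Itpr1 (1.18 ± 0.24) and Dok2 (0.96 ± 0.24) led those higher. Those lower were Tec (-1.42 ± 0.28), Rhoh (-0.95 ± 0.16) and Sla (-0.81 ± 0.15). In CD8 DTx against CD4 DTx 1 was higher (1.43%) and 2 lower (2.86%), beside 0.892% and 0.75% of all genes. Tec was higher (1.66 ± 0.28) and Trat1 (-2.71 ± 0.44) and Pik3r2 (-1.63 ± 0.36) were lower. In CD8 PBS against CD4 PBS none of the 70 was called by limma (4 at an unadjusted p under 0.05) or edgeR, and 1 by DESeq2. Of all genes, limma called 0.837% higher and 0.245% lower there.

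The 27 genes that limma called in no comparison were Cd3d, Cd3e, Cd3g, Cd247, Lck, Fyn, Zap70, Lcp2, Grb2, Plcg1, Sos1, Rasgrp1, Ppp3ca, Nfatc2, Bcl10, Malt1, Rel, Rela, Pik3r1, Akt1, Ptprc, Csk, Pag1, Ptpn22, Cblb, Cbl and Dgkz. Their log2 fold changes ran from -1.70 to 1.76 and their lowest adjusted p by limma was 0.0524. DESeq2 called 8 of them in at least 1 comparison (Cd247, Fyn, Lcp2, Pag1, Ptpn22, Rasgrp1, Sos1 and Zap70) and edgeR called 0. Some of these genes varied widely within groups. Plcg1 was at 2502, 7909 and 11107 in CD4 DTx and at 3160, 3012 and 13375 in CD8 DTx, and Pag1, which anchors the kinase Csk, at 274.3, 640.2 and 1108 in Treg PBS. In each of these groups replicate 3 was the highest, as it was for the length shift.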

How the data were processed

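RNA sequencing of 13 libraries in 5 groups, set by the sample titles, was analysed. Per the labels and methods, RNA of the sorted cells was extracted by the authors, who made SmartSeq2 libraries (the methods name a related SMART kit), trimmed with Cutadapt, aligned to mm9 (NCBIM37), kept uniquely mapped reads and scaled to library size. The read counter and strand setting are not given in the sources used here, so levels of genes with overlapping exons are uncertain. The deposited values, a normalised signal named FPM, were whole multiples of 1 step per library in 100% of cases (tolerance 0.01 of a read), as read counts divided by a size factor are. A read was worth between 0.661 and 1.37 units. The values are called normalised counts. The study describes biological replicates collected on separate days, but the labels do not tie a replicate number to a day or animal across groups. The least different pair of libraries of a group still differed by more than counting error (a chi-square of 42.2 for each degree of freedom).

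Genes with at least 10 normalised counts in at least 2 libraries were tested on log2(value + 1) by fitting limma 3.58.1 (R 4.3.3) to the 13 libraries together, each group having its own mean. The study used DESeq2, which needs counts. A gene was called at a Benjamini-Hochberg adjusted p under 0.05 over all 12667 genes, and "called" means this throughout. Log2 fold changes refer to log2(value + 1), with the model's SE. Recovered reads were tested with edgeR 4.0.16 and DESeq2 1.42.0 as alternatives, beside other scalings, filters, pseudocounts, samples and covariates. Shares over all genes refer to the main limma fit and were not counted for the alternatives. The fit was also run on simulated counts with known changes, as a check of the code only, and its outcome is not given here. The members and gene lists were chosen with earlier results of these data known. Named genes were those called in CD4 DTx or CD8 DTx against PBS or in Treg PBS against CD4 PBS, or past 4-fold elsewhere, and the highest member of a role with none. Other pathway genes were named up to 3 per direction. A few genes of the pathway and marker lists are not reported here and were left out of the counts and sums. Exonic lengths and positions came from GENCODE for GRCm38, a build other than that of the alignment, and promoters from RefSeq. The length shift used 90.5% of the genes outside the set that were tested.

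Samples with the same replicate number deviated together in CD8 DTx and CD4 DTx (r across genes 0.36, 0.207 and 0.59 for replicates 1, 2 and 3), so the numbers were taken to pair these samples, a hint from the data and not the design. The length shift of replicates 1, 2 and 3 was -0.40, 0.11 and 0.27 in CD4 DTx and -0.74, -0.38 and 0.50 in CD8 DTx. Its part in these correlations was not tested.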

Additional observations from a re-analysis of the deposited data

How the results depend on the processing

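Of 42 calls of a gene in a comparison, none reversed in any alternative, 19 held in every alternative apart from the 4-fold threshold, and 21 were lost without at least 1 library. Both scalings, both pseudocounts, DESeq2 and the replicate block kept all 42. The unfiltered fit lost 2, edgeR 1, the length shift as a covariate (added after seeing the data) 4, and a fit of only the groups compared 13. Requiring 4-fold left 2 members in CD4 DTx against CD4 PBS, 0 in CD8 DTx against CD8 PBS, 4 in Treg PBS against CD4 PBS, 1 in CD4 DTx against Treg PBS and 0 in both comparisons of CD8 with CD4 cells. With only the groups compared the counts were 1 in CD8 DTx against CD8 PBS, 1 in CD8 DTx against CD4 DTx and 0 in CD8 PBS against CD4 PBS, where fewer samples gave the spread. DESeq2 called 11 in CD8 DTx against CD8 PBS, 6 in CD8 DTx against CD4 DTx and 2 in CD8 PBS against CD4 PBS, and the length shift covariate 7 in CD8 DTx against CD8 PBS. The cause was not tested, and a count may move because a fit calls more or fewer genes of any kind. Leaving out 1 library gave 5 to 7 calls in CD4 DTx against CD4 PBS, 2 to 11 in CD8 DTx against CD8 PBS (11 without CD8 DTx replicate 3), 6 to 17 in Treg PBS against CD4 PBS, 0 to 0 in CD8 PBS against CD4 PBS and in the interaction, 2 to 4 in CD8 DTx against CD4 DTx and 8 to 14 in CD4 DTx against Treg PBS.

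The replicate block gave 9 calls in both DTx comparisons with PBS (8 and 4 without it), 21 in Treg PBS against CD4 PBS, 6 in CD8 DTx against CD4 DTx, 14 in CD4 DTx against Treg PBS, 1 in CD8 PBS against CD4 PBS and 0 in the interaction. Apart from CD8 DTx and CD4 DTx the samples were taken to share only a number, since no source ties a number to a day across groups and the mean correlation of same-numbered deviations was -0.26, 0.04, 0.10, 0.19 and, with 1 pair at 0.04, 0.17 in CD4 DTx against CD4 PBS, CD8 DTx against CD8 PBS, Treg PBS against CD4 PBS, CD8 PBS against CD4 PBS and CD4 DTx against Treg PBS.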
